A study of Mus musculus with 18 samples.

Results

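Integrins are adhesion receptors made of an alpha and a beta subunit, and the 10 subunit genes described here, chosen by symbol, encode the integrins known best from B cells together with a few that are better known from other cells. They were Itgal, Itgb2, Itgam, Itgax, Itga4, Itgb1, Itgb7, Itgav, Itgb3 and Itgb5, that is 10 of the 23420 genes listed for every library. All 10 passed the filter on low values (over 0 log2 CPM in at least 3 of the libraries compared), which left 11494 genes in one arm of the study and 11082 in the other. Itgb3 and Itgb5 were among genes that the study itself named from the Tlr997 and Tlr9het libraries used here, so a difference between these genotypes in either gene is not independent evidence. The study also named Itgb3 as higher in Tlr779 than in Tlr7WT control B cells after the agonist. Its level in stimulated Tlr779 libraries is thus not independent of that choice either.

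RNA was measured in B cells purified from the spleens of MRL/lpr mice aged 5 to 7 weeks, a strain that carries the lpr mutation of Fas and develops a disease like lupus, after 4 h in culture. In the first arm all mice were female and Tlr7-/-, and B cells carried either Tlr997, a chimeric TLR9 whose signalling (TIR) domain is that of TLR7, or the control genotype Tlr9+/- (Tlr9het). They were left unstimulated or given the TLR9 agonist CpG at 10 µg/ml. In the second arm all mice were male and Tlr9-/- and carried Tlr779, a chimeric TLR7 with the TIR domain of TLR9, and B cells were left unstimulated or given the TLR7 agonist CL097 at 5 µg/ml. Each of the 6 groups had 3 libraries, and the labels give 3 mice per genotype. Both chimeras were knock-in alleles at the endogenous locus and thus present in every cell of the mouse. The sample labels give the control as Tlr9+/-, whereas the treatment notes in the same labels and the study's methods name Tlr9-/- Tlr7-/- mice; the sample labels were followed. A Tlr7WT control of this second arm was not analysed here, and since the arms differed in sex, genotype and agonist, their values are set side by side without a test.

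The purification removed cells with antibodies to CD43, CD4, CD8, CD11b, CD11c and Gr-1. CD11b and CD11c are the proteins of Itgam and Itgax, so cells with much of either on the surface were depleted by design. All 8 B cell markers examined were above 0 log2 CPM in every library, with summed levels of 6000 to 7770 CPM in unstimulated and 1820 to 3430 CPM in stimulated libraries. Summed markers of T cells stayed between 52 and 120 CPM, those of macrophages and monocytes between 74.6 and 438 CPM, and those of neutrophils between 19.2 and 173 CPM. Tlr7 transcript averaged 3.15 log2 CPM in unstimulated Tlr9het, 4.96 in unstimulated Tlr997 and 6.88 in unstimulated Tlr779 libraries, and Tlr9 transcript was between 7.04 and 7.37 log2 CPM in these 3 groups, so the Tlr9 level alone did not set the labelled genotypes apart. Values are the authors' log2 CPM (read counts scaled to library size, on a log2 scale after quantile normalization). No counts were used, so the read depth behind each value is unknown. The third unstimulated Tlr997 library stood somewhat apart from its group, with correlations across 11676 genes of 0.944 and 0.955 with the other two libraries, beside 0.976 to 0.989 for the other pairs of replicates.

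An integrin reaches the cell surface only as a pair of an alpha and a beta chain, and lymphocytes keep it in a bent, weakly binding form until signals from inside the cell, carried by Rap1, talin and kindlin, open it. LFA-1 (Itgal with Itgb2) and VLA-4 (Itga4 with Itgb1) bind ICAM-1 and VCAM-1 and are the integrins that hold B cells, above all marginal zone B cells, in the spleen. Itga4 with Itgb7 binds MAdCAM-1 and takes lymphocytes to the gut, whereas the alpha v integrins bind proteins with an RGD motif and activate latent TGF-beta.

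The 10 genes lie on 7 chromosomes (mm10 build, GENCODE M21 annotation). Itgal (chr7:127296260-127335138), Itgam (chr7:128062640-128118491) and Itgax (chr7:128129547-128150657) all lie on the plus strand of chromosome 7, with 0.73 Mb between Itgal and Itgam and 11.1 kb between Itgam and Itgax. Itga4 and Itgav lie 4.39 Mb apart on chromosome 2. Promoter windows (250 bases before to 50 after the start, RefSeq, build GRCm38.p6) were available for 7 of the 10 genes and not for Itgal, Itgb2 or Itgb3. The stretches from 60 bases before to 20 bases after the start are shown for the 4 of them whose transcripts changed with every agonist, so that the promoters of the falling Itga4, Itgb7 and Itgav can be read beside that of the rising Itgb1. Capitals mark matches to the PU.1 motif GAGGAAGT and the Runx motif TGTGGT, here on the opposite strand.
Itga4 (chr2:79255366-79255445, plus strand): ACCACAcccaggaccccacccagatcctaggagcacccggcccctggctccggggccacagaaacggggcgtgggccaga
Itgb7 (chr15:102231916-102231995, minus strand): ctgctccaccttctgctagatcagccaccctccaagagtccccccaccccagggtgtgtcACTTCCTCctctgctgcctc
Itgav (chr2:83724337-83724416, plus strand): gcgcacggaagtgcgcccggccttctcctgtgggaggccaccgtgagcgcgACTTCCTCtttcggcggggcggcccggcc
Itgb1 (chr8:128685594-128685673, plus strand): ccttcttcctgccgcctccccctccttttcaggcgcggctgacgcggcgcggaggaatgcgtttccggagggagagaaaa
The PU.1 motif was found in 2 of the 7 windows, those of Itgav and Itgb7, within 10 bases of the start in both, and in 3.2% of all 32851 promoter windows. The Runx motif was in the windows of Itga4 and Itgax and in 16.76% of all windows. The AP-1 motif TGANTCA was in the window of Itgax alone and in 7.81% of all. None of the 7 windows held the CRE motif TGACGTCA (1.79% of all) or the kappaB consensus (8.46% of all). All motifs were searched on both strands, and a match is a description of the letters, not of binding.

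In resting B cells Itga4, the alpha chain of VLA-4, had the highest transcript level per exonic length of the 10, and Itgb5 the lowest. On the scale of log2 CPM per kb of exon, Itga4 averaged 6.10 ± 0.26 (SD, n = 3) in unstimulated Tlr9het libraries, followed by Itgb2 at 5.78 ± 0.10, Itgb1 at 5.11 ± 0.10, Itgal at 4.91 ± 0.09, Itgb7 at 4.45 ± 0.30, Itgb3 at 4.31 ± 0.32 and Itgav at 3.80 ± 0.15. The last 3 were far lower, with Itgam at 1.65 ± 0.34, Itgax at 0.31 ± 0.26 and Itgb5 at -0.40 ± 0.29. The same order held in unstimulated Tlr997 and Tlr779 libraries. Neighbours in this order whose library values overlapped in at least 1 of the 3 groups were Itga4 and Itgb2, Itgb7 and Itgb3, Itgam and Itgax, and Itgax and Itgb5.

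With an agonist the order changed at its top and in its middle. Itgb1 became first in all 3 stimulated groups, at 6.18 ± 0.01, 6.09 ± 0.07 and 6.09 ± 0.12 log2 CPM per kb in Tlr9het, Tlr997 and Tlr779, and Itga4 moved to the fourth place in each. In both CpG groups Itgb7 and Itgb3 fell below Itgam, to 1.02 ± 0.17 and 0.98 ± 0.16 in Tlr9het and to 0.45 ± 0.62 and 0.35 ± 0.07 in Tlr997. After CL097 Itgb7 stood at 1.44 ± 0.21 but Itgb3 stayed above Itgam, at 2.93 ± 0.17. These orders rest on the length taken for each gene, here all annotated exons joined. With the length of the longest coding transcript, Itgal came before Itgb1 in Tlr997 with CpG (6.28 and 6.19 log2 CPM per kb), in unstimulated Tlr9het (5.24 and 5.21) and in unstimulated Tlr779 (5.28 and 5.26), before Itgb2 with CL097 (5.49 and 5.28), and Itgav came before Itgb3 in unstimulated Tlr9het (4.41 and 4.34) and Tlr997 (4.33 and 3.98). The same length also put Itgax before Itgb5 in Tlr9het with CpG (0.11 and -0.01).

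**Figure D1:**
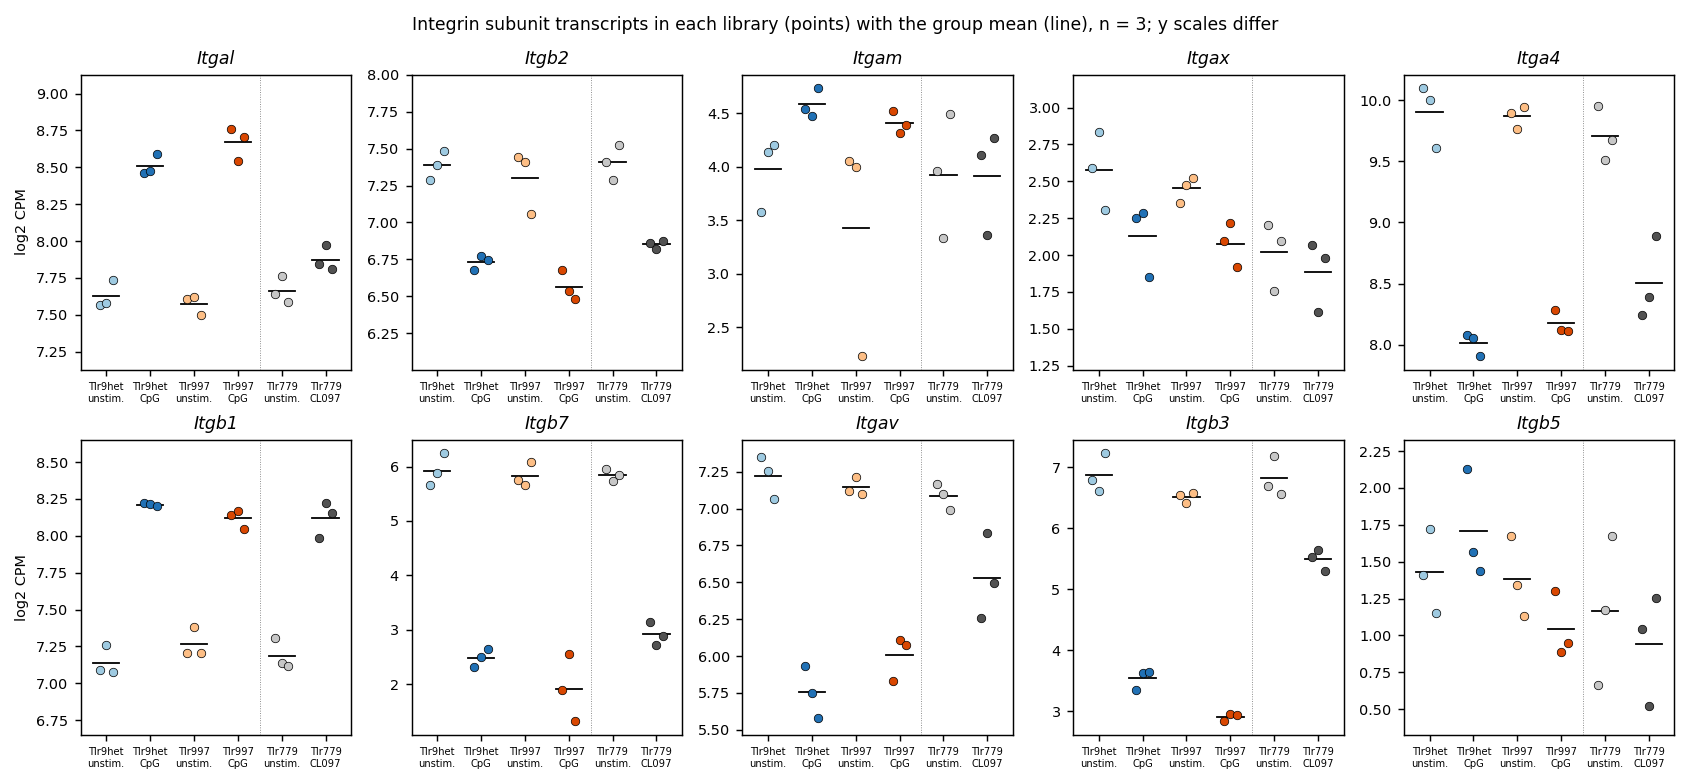
Level of each of the 10 integrin transcripts in each of the 18 libraries (points; y axis in log2 CPM, scales differ between panels) with the mean of the 3 libraries of each group (line). Itga4, Itgb7, Itgav and Itgb3 sit lower and Itgb1 higher in every stimulated group than in its unstimulated group, with no overlap, and the third unstimulated Tlr997 library is the lowest of all 18 for Itgam, at 2.23.

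All the stimulus comparisons ask how 4 h of agonist changed the transcripts. Changes were tested with limma on the log2 CPM, with p-values adjusted over all genes tested by Benjamini-Hochberg, and calls required an adjusted p below 0.05 together with a change of more than 0.5 on the log2 scale, up or down. With CpG in Tlr9het B cells 7 of the 10 integrins were called, 2 higher and 5 lower, where 57.8% of all genes tested were called (29.7% higher and 28.2% lower). With CpG in Tlr997 B cells 8 were called, 3 higher and 5 lower, beside 55.6% of all genes (29.6% higher and 26% lower). CL097 in Tlr779 B cells gave 6 called integrins, 1 higher and 5 lower, beside 46.3% of all genes (22.7% higher and 23.6% lower). Itga4, Itgb7, Itgav, Itgb3 and Itgb2 were the 5 lower genes in each response and Itgb1 was higher in each. The median log2 fold change of the 10 integrins was -0.55, -0.56 and -0.39 in the 3 responses, beside 0.04, 0.07 and -0.02 over all genes tested. Group values did not overlap for 9, 9 and 7 integrins, as for 80.1%, 71.2% and 67.8% of all genes. In bulk RNA, fewer cells with a transcript and less of it per cell cannot be told apart.

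**Figure D2:**
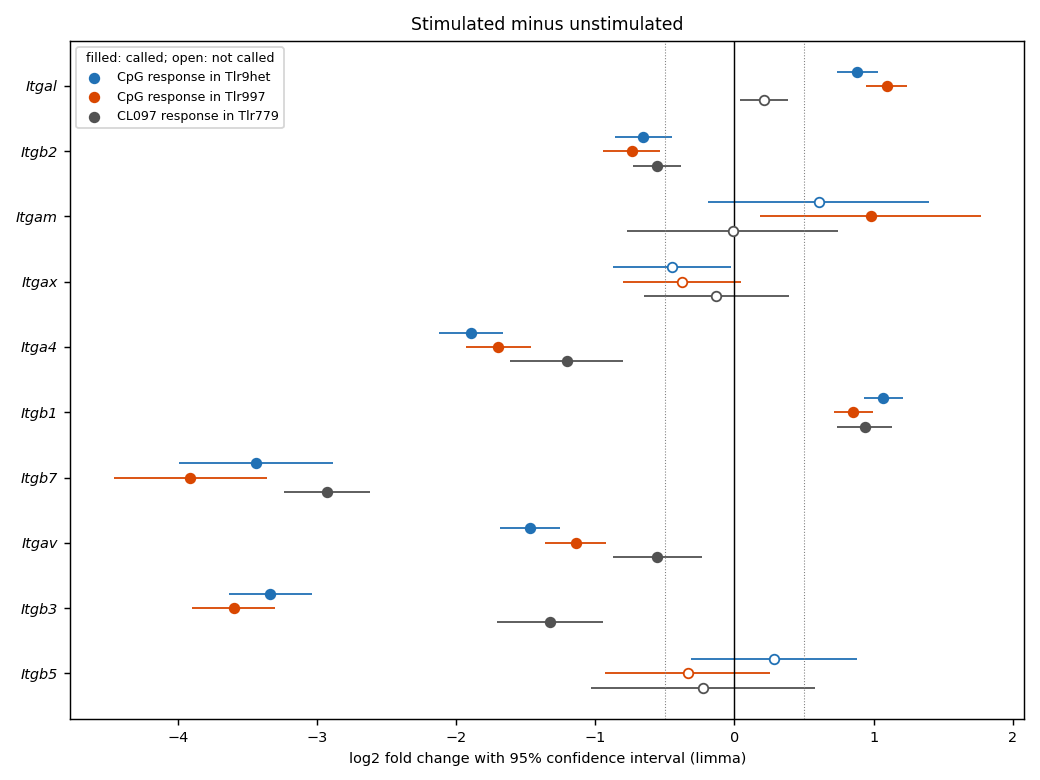
Log2 fold change of each integrin (x axis, stimulated minus unstimulated, with the 95% confidence interval from limma) for CpG in Tlr9het, CpG in Tlr997 and CL097 in Tlr779 B cells. Filled points passed both thresholds, and the dotted lines mark a log2 fold change of 0.5 in either direction: Itgb7 and Itgb3 lie farthest to the left for CpG, and the point of Itgb3 for CL097 lies at -1.33.

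The chains of LFA-1 moved apart: with CpG, Itgal rose while Itgb2 fell. Itgal, the alpha L chain (CD11a), was at 7.57, 7.58 and 7.73 log2 CPM in the 3 unstimulated Tlr9het libraries and at 8.46, 8.48 and 8.59 with CpG. Unstimulated Tlr997 libraries were at 7.60, 7.62 and 7.5 and those with CpG at 8.76, 8.54 and 8.71. Every CpG library was thus above every unstimulated one in both genotypes. The log2 fold change was 0.88 (SE 0.07, limma adjusted p = 6.2e-08) in Tlr9het and 1.09 (adjusted p = 8.3e-09) in Tlr997, or 1.84-fold and 2.13-fold. For CL097 the values were 7.64, 7.77 and 7.59 without and 7.84, 7.97 and 7.81 with agonist. These did not overlap either, but the change of 0.21 (log2, SE 0.07, limma adjusted p = 0.040) was below the fold threshold and Itgal was not called.

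Itgb2 is the common beta 2 chain, which Itgal, Itgam and Itgax all need. It stood at 7.29, 7.39 and 7.49 log2 CPM in unstimulated Tlr9het libraries and at 6.68, 6.77 and 6.75 with CpG. In Tlr997 it went from 7.44, 7.41 and 7.06 to 6.68, 6.54 and 6.48, and with CL097 in Tlr779 from 7.41, 7.29 and 7.53 to 6.86, 6.82 and 6.87. No stimulated library reached its unstimulated group. The log2 fold changes were -0.65 (SE 0.09, limma adjusted p = 2.8e-05), -0.74 (adjusted p = 9.3e-06) and -0.56 (adjusted p = 3.7e-04). Without correction for length, the level of Itgal minus that of Itgb2 within each library averaged 0.24 ± 0.04 on the log2 scale in unstimulated and 1.78 ± 0.07 in CpG libraries of Tlr9het, 0.27 ± 0.15 and 2.11 ± 0.11 in Tlr997, and 0.26 ± 0.21 and 1.02 ± 0.11 without and with CL097 in Tlr779 (SD, n = 3).

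Of the other two alpha chains that pair with Itgb2, Itgax did not pass the test in any response and Itgam passed in 1. Itgam, the alpha M chain (CD11b) of macrophages, granulocytes and some B cells, was at 3.58, 4.14 and 4.20 log2 CPM in unstimulated and 4.54, 4.47 and 4.74 in CpG libraries of Tlr9het. In Tlr997 the unstimulated values were 4.06, 4.00 and 2.23 and the CpG values 4.52, 4.32 and 4.39. Groups did not overlap in either genotype, but the third unstimulated Tlr997 library was far below all others. The log2 fold change was 0.61 (SE 0.37, limma adjusted p = 0.15, not called) in Tlr9het and 0.98 (SE 0.37, adjusted p = 0.029, called) in Tlr997. Without that library the Tlr997 value was 0.38 (limma adjusted p = 0.053, not called), and the Tlr9het value of 0.61, whose error is shared with the other groups, had an adjusted p of 0.0022 and was called. Leaving out any CpG library of Tlr997 also ended the call there, with adjusted p from 0.051 to 0.070 in limma and log2 fold changes from 0.92 to 1.02. The difference between the 2 genotypes' Itgam responses was 0.37 (SE 0.52, limma adjusted p = 0.78).

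With CL097 in Tlr779 B cells Itgam went from 3.96, 3.33 and 4.49 to 4.11, 3.36 and 4.27 log2 CPM, a log2 fold change of -0.01 with a 95% interval from -0.77 to 0.74 (limma adjusted p = 0.97). Replicate numbers kept their order in both groups, with replicate 2 lowest and replicate 3 highest. Because Itgam is also a gene of macrophages and monocytes, the summed CPM of 7 of their markers is given beside it. The sum was 237, 172 and 438 CPM in the 3 unstimulated and 112, 74.6 and 178 CPM in the 3 CL097 libraries, the same order of libraries as for Itgam. In the first arm it was 219, 256 and 193 CPM in unstimulated and 153, 150 and 131 CPM in CpG libraries of Tlr9het, and 317, 208 and 117 CPM and then 183, 119 and 88.7 CPM in Tlr997. The marker sum was thus lower with CpG in the groups where Itgam was higher, and the unstimulated Tlr997 library with the least Itgam also had the lowest sum of its group. Summed CPM of 7 neutrophil markers were 51.1, 110 and 99.7 in unstimulated and 45.9, 74.3 and 87.4 in CpG libraries of Tlr9het, and 173, 143 and 50.9 and then 120, 95.7 and 34.4 in Tlr997. In Tlr779 they were 43.0, 33.5 and 84.2 without and 25.0, 19.2 and 53.1 with CL097. The neutrophil sum was lowest in the libraries with the least Itgam in each of the 3 unstimulated groups and with CL097. In unstimulated Tlr9het the macrophage and monocyte sum was instead lowest in replicate 3, which had the most Itgam. With CpG neither sum was lowest in the library with the least Itgam, in either genotype. The neutrophil sum was lower with CpG in every same-numbered pair of the first arm. None of the 7 markers of either list was below 0 log2 CPM in all libraries, and the part of these cells in the Itgam values was not tested.

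**Figure D3:**
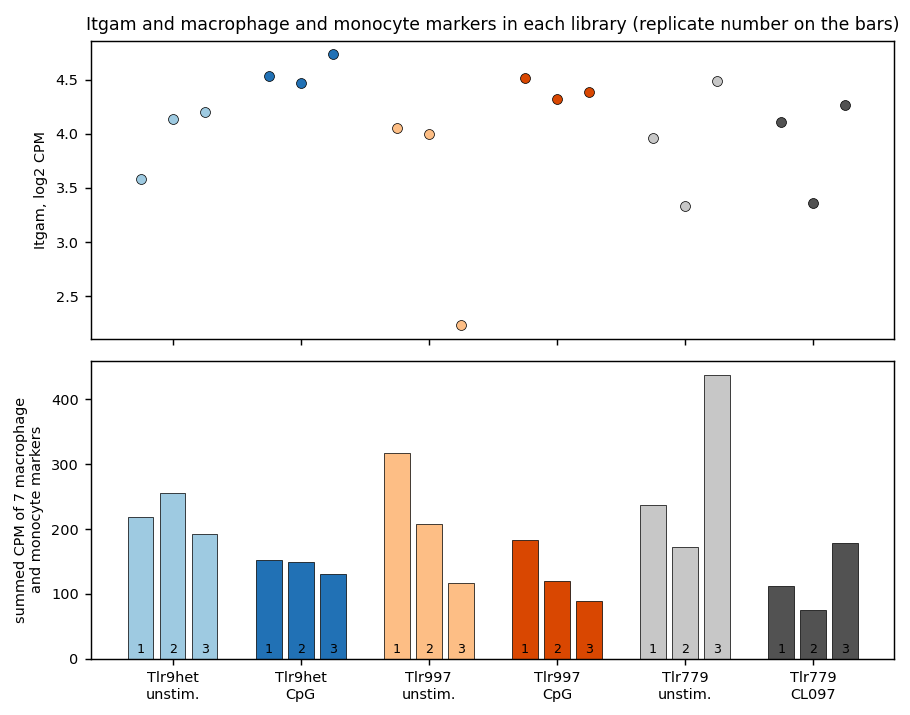
Top: level of Itgam (log2 CPM) in each library. Bottom: summed CPM of 7 macrophage and monocyte markers in the same libraries, with replicate numbers on the bars, which start at 0. In the Tlr779 groups both panels have replicate 2 lowest and replicate 3 highest, whereas with CpG the Itgam points lie higher and the bars lower than without.

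Itgax, the alpha X chain (CD11c), is known from dendritic cells and from age-associated B cells. It was at 2.59, 2.83 and 2.31 log2 CPM in unstimulated and 2.25, 2.29 and 1.85 in CpG libraries of Tlr9het, and at 2.35, 2.48 and 2.53 and then 2.10, 2.22 and 1.92 in Tlr997. Groups did not overlap, yet the log2 fold changes of -0.45 (SE 0.20, limma adjusted p = 0.054) and -0.38 (adjusted p = 0.10) were not called. Without the third unstimulated Tlr9het library the value there was -0.58 (limma adjusted p = 0.027) and was called, as it was with array weights (-0.50, adjusted p = 0.012). With CL097 the values were 2.21, 1.76 and 2.10 before and 2.07, 1.62 and 1.98 after, a difference of -0.13 (limma adjusted p = 0.64). Summed levels of 5 other genes of age-associated B cells (Tbx21, Fcrl5, Zbtb32, Cd80 and Fas) moved the other way, from 56.9 to 64.5 CPM in unstimulated to 238 to 251 CPM in CpG libraries of Tlr9het, and were not tested for a part in the Itgax values. The sum over 7 markers of conventional dendritic cells was 28.9 to 31.8 CPM before and 63.5 to 77.7 CPM after CpG in Tlr9het, mostly through Zbtb46, which went from 4.00, 3.68 and 4.04 to 5.72, 5.52 and 5.88 log2 CPM. Of the 7, 3 were below 0 log2 CPM in all libraries, and Clec9a, with values of -0.80, -0.50 and 0.15 before and -1.56, -1.55 and -0.66 after CpG, did not share the rise of the sum.

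Itga4 fell with each agonist while its partner Itgb1 rose and its partner Itgb7 fell. Itga4, the alpha 4 chain (CD49d), was at 10.10, 10.00 and 9.61 log2 CPM in unstimulated and 8.08, 8.05 and 7.91 in CpG libraries of Tlr9het. Tlr997 libraries were at 9.90, 9.76 and 9.95 before and 8.29, 8.12 and 8.11 after CpG, and Tlr779 libraries at 9.95, 9.51 and 9.68 before and 8.24, 8.39 and 8.89 after CL097. Stimulated and unstimulated libraries were well apart in every case, the closest being the third CL097 library. Log2 fold changes were -1.89 (SE 0.11, limma adjusted p = 2.3e-09), -1.70 (adjusted p = 8.5e-09) and -1.21 (SE 0.18, adjusted p = 5.5e-04), that is 3.71-fold, 3.24-fold and 2.31-fold lower.

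Itgb1, the beta 1 chain shared by VLA-4 and many matrix receptors, was the only 1 of the 10 called higher in all 3 responses. Its values in Tlr9het were 7.09, 7.26 and 7.08 log2 CPM before and 8.22, 8.21 and 8.20 after CpG, and in Tlr997 7.21, 7.38 and 7.21 before and 8.14, 8.17 and 8.04 after. For CL097 they were 7.31, 7.14 and 7.12 before and 7.98, 8.23 and 8.16 after. The 3 Tlr9het CpG libraries were almost equal, and all 9 stimulated libraries exceeded all 9 unstimulated ones. Log2 fold changes were 1.07 (SE 0.06, limma adjusted p = 4.7e-09), 0.85 (adjusted p = 5.5e-08) and 0.94 (SE 0.09, adjusted p = 4.7e-05).

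Itgb7, the beta 7 chain of the gut-homing integrin, had the largest fall in value of the 10 in all 3 responses, though with CpG its 95% interval overlapped that of Itgb3. It went from 5.65, 5.88 and 6.24 log2 CPM to 2.31, 2.50 and 2.64 with CpG in Tlr9het, and from 5.75, 5.65 and 6.08 to 1.89, 2.56 and 1.31 in Tlr997. With CL097 in Tlr779 it went from 5.96, 5.73 and 5.84 to 3.13, 2.72 and 2.89. Unstimulated libraries were close together, and the Tlr997 CpG libraries spread the most, over more than 1 log2 unit. The log2 fold changes were -3.44 (SE 0.25, limma adjusted p = 3.7e-08), -3.91 (SE 0.25, adjusted p = 1.2e-08) and -2.93 (SE 0.13, adjusted p = 3.8e-06), or 10.8-fold, 15-fold and 7.61-fold lower. Among the 11494 genes of the first arm these ranked at 222.5 and 131 by size of change, and among the 11082 of the second at 106 (ties averaged).

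The partners of the alpha 4 chain were thus far from each other after stimulation. Within a library Itgb1 exceeded Itgb7 by 1.22 ± 0.33 on the log2 CPM scale in unstimulated and 5.73 ± 0.17 in CpG libraries of Tlr9het, by 1.44 ± 0.30 and 6.20 ± 0.56 in Tlr997, and by 1.35 ± 0.06 and 5.21 ± 0.33 without and with CL097 in Tlr779 (SD, n = 3). Per kb of exon the distance between the chains is smaller by the difference of their lengths, 4.081 kb for Itgb1 and 2.77 kb for Itgb7, but its change with the agonist is the same.

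Itgav and Itgb3, the chains of alpha v beta 3, both fell with each agonist, whereas Itgb5 was not called in any response. Itgav, which pairs with the beta 1, beta 3 and beta 5 chains among others, was at 7.35, 7.26 and 7.07 log2 CPM in unstimulated and 5.93, 5.75 and 5.58 in CpG libraries of Tlr9het. In Tlr997 it went from 7.12, 7.22 and 7.1 to 5.83, 6.11 and 6.07, and in Tlr779 from 7.17, 7.1 and 6.99 to 6.26, 6.84 and 6.50 with CL097. Groups did not overlap, though the second CL097 library came close to the unstimulated ones. The log2 fold changes were -1.47 (SE 0.10, limma adjusted p = 1.6e-08), -1.14 (adjusted p = 2.6e-07) and -0.56 (SE 0.14, adjusted p = 0.0086). The CL097 call of Itgav was lost without the first CL097 library (-0.42, limma adjusted p = 0.019, below the fold threshold), and that of Itgb2 without the third unstimulated Tlr779 library (-0.50, adjusted p = 0.0016), which was also just below the fold threshold.

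Itgb3, the beta 3 chain, is known best from platelets, where it pairs with Itga2b, and from the alpha v beta 3 receptor for vitronectin. In Tlr9het it was at 6.79, 6.60 and 7.23 log2 CPM before and 3.35, 3.62 and 3.64 after CpG. Tlr997 libraries were at 6.55, 6.41 and 6.57 before and 2.83, 2.96 and 2.95 after CpG, and Tlr779 libraries at 6.70, 7.19 and 6.56 before and 5.53, 5.64 and 5.30 after CL097. All stimulated libraries were below all unstimulated ones, and the CpG libraries of both genotypes were lower than every CL097 library. Log2 fold changes were -3.33 (SE 0.14, limma adjusted p = 1.1e-10), -3.60 (SE 0.14, adjusted p = 8.3e-11) and -1.33 (SE 0.17, adjusted p = 2.4e-04), or 10.1-fold, 12.1-fold and 2.51-fold lower. The agonists, doses, genotypes and sexes differed, so the distance between the CpG and the CL097 values was not tested.

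Platelet genes were near the lower end of the measured range in these libraries. Of 8 markers of platelets and megakaryocytes, Itga2b among them, 3 (Gp9, Gp1bb and Treml1) were below 0 log2 CPM in all 18 libraries, and the sum of the 8 was 4.67 to 12.5 CPM. It was 8.18 to 9.12 CPM in unstimulated and 6.42 to 9.95 CPM in CpG libraries of Tlr9het. In Tlr997 it was 7.08 to 8.88 CPM without and 5.32 to 8.41 CPM with CpG. In Tlr779 it was 5.06 to 12.5 CPM without and 4.67 to 10.4 CPM with CL097. The part of platelets in the Itgb3 values was not tested.

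Itgb5, the beta 5 chain, pairs with Itgav alone and had the lowest resting level of the 10 per kb of exon. Its values were 1.41, 1.72 and 1.15 log2 CPM before and 2.13, 1.57 and 1.43 after CpG in Tlr9het, and 1.67, 1.34 and 1.14 before and 1.3, 0.89 and 0.95 after CpG in Tlr997. With CL097 they were 0.66, 1.17 and 1.68 before and 1.05, 0.53 and 1.25 after. Groups overlapped in all 3 comparisons. The log2 fold changes of 0.28 (95% interval -0.31 to 0.88, limma adjusted p = 0.38), -0.34 (-0.93 to 0.26, adjusted p = 0.29) and -0.23 (-1.03 to 0.58, adjusted p = 0.59) were not called.

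Among unstimulated B cells the integrins of Tlr997 and Tlr9het were close, and with CpG a difference was called in Itgb3. None of the 10 integrins was called between the unstimulated genotypes by limma, where 0.0174% of all genes tested were, and 1 had an unadjusted p under 0.05 (10.8% of all genes). That was Itgb3, lower in Tlr997 by 0.36 on the log2 scale (SE 0.14, limma adjusted p = 0.39). Its groups did not overlap, as for 13.6% of all genes. The other 9 differences lay between -0.55 for Itgam (SE 0.37, limma adjusted p = 0.61), which includes the Tlr997 library with little Itgam, and 0.12 for Itgb1 (adjusted p = 0.52).

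With CpG in both genotypes 1 of the 10 integrins was called, beside 2.72% of all genes tested (1.47% lower). Itgb3 was at 2.83, 2.96 and 2.95 log2 CPM in Tlr997 and at 3.35, 3.62 and 3.64 in Tlr9het, with no overlap. The difference was -0.62 (SE 0.14, limma adjusted p = 0.018), or 1.54-fold lower in Tlr997. The call was lost when any of 3 libraries was left out: the second Tlr9het CpG library (-0.58, limma adjusted p = 0.077), the third (-0.57, adjusted p = 0.079) or the first Tlr997 CpG library (-0.59, adjusted p = 0.061). It was also lost with no filter on low values (limma adjusted p = 0.100) and with no trend of the variance (adjusted p = 0.0501), each at -0.62.

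Itgb5 differed by -0.66 in the same direction, with Tlr997 values of 1.3, 0.89 and 0.95 below the Tlr9het values of 2.13, 1.57 and 1.43 log2 CPM, but was not called (SE 0.28, limma adjusted p = 0.20). Itgb7 was lower by 0.57 (SE 0.25, limma adjusted p = 0.25) with overlapping libraries, and was called at -0.89 (adjusted p = 0.041) when the second Tlr997 CpG library, its highest, was left out. Itgav was higher in Tlr997 by 0.25 (limma adjusted p = 0.19) and Itgal by 0.16 (adjusted p = 0.22), neither called. Groups did not overlap for 5 of the 10 (Itgb2, Itga4, Itgb1, Itgb3 and Itgb5), as for 30% of all genes, and 5 had an unadjusted p under 0.05, as 19% of all genes did.

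None of the 10 was called in the difference of the CpG responses, Tlr997 minus Tlr9het, in limma, where 1.54% of all genes were, and 3 had an unadjusted p under 0.05 (16% of all genes). Itgb3 differed by -0.26 with a 95% interval from -0.68 to 0.16 (limma adjusted p = 0.55). For Itgb5 the difference was -0.62 (-1.46 to 0.22, adjusted p = 0.47). The 3 genes were Itgav (0.33, limma adjusted p = 0.27), Itgb1 (-0.22, adjusted p = 0.26) and Itgal (0.21, adjusted p = 0.31). Thus the lower Itgb3 of Tlr997 with CpG, of which -0.36 was measured before CpG, was not shown to come with a different response. These 3 comparisons share libraries with the CpG responses.

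**Figure D4:**
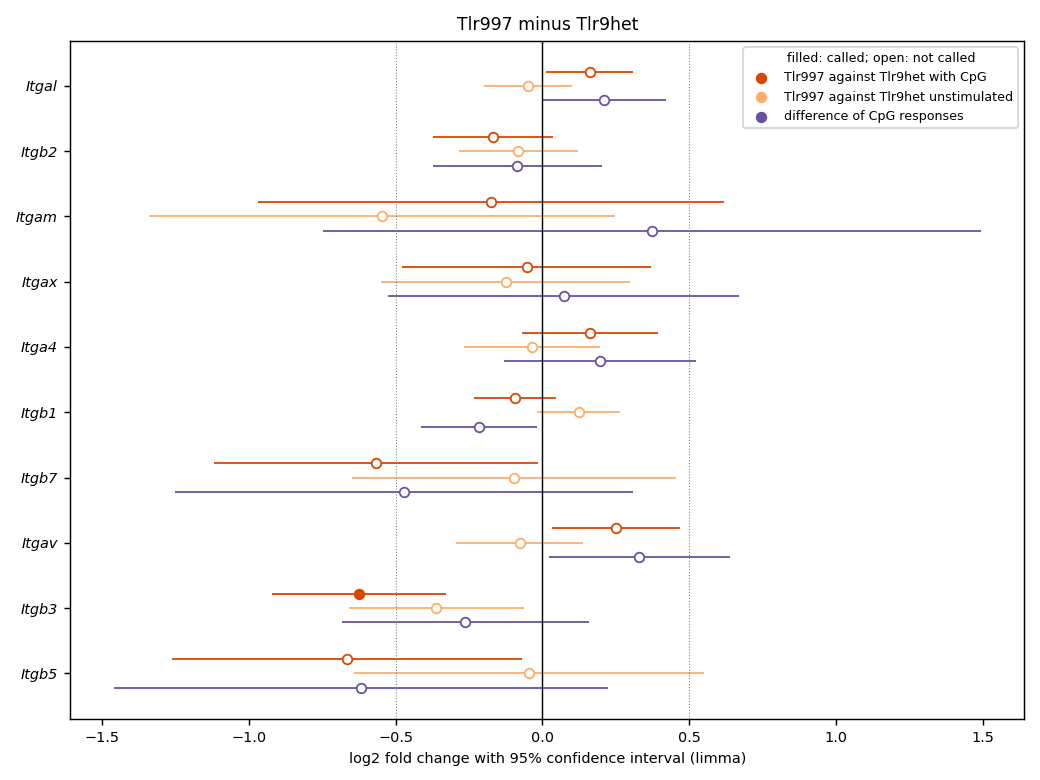
Log2 difference of each integrin between Tlr997 and Tlr9het (x axis, Tlr997 minus Tlr9het, with the 95% confidence interval from limma), with CpG, unstimulated, and as the difference of the CpG responses. The only filled point, past both thresholds (dotted lines at 0.5 in either direction), is Itgb3 with CpG at -0.62, and the intervals of Itgam and Itgb5 are the widest.

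The other 17 integrin subunit genes were mostly too low to test: 7 passed the filter. Itga6, the alpha 6 chain of the laminin receptor, was lower with each agonist. It averaged 4.44 ± 0.10 log2 CPM in unstimulated and 2.83 ± 0.03 in CpG libraries of Tlr9het, 4.41 ± 0.24 and 2.33 ± 0.33 in Tlr997, and 4.50 ± 0.25 and 2.77 ± 0.33 without and with CL097 (SD, n = 3). The log2 fold changes were -1.61, -2.08 and -1.73 (limma adjusted p = 1.3e-06, 1.1e-07 and 1.7e-04). Itga6 was the only called gene of these 7 in Tlr9het. Itga9 was lower with CpG in Tlr997 (-0.74, limma adjusted p = 0.015). Itga10, which averaged only 0.55 log2 CPM, was higher with CL097 (1.16, limma adjusted p = 0.017) and is named after its value was seen. It passed the filter only with its CL097 libraries counted, as its unstimulated Tlr779 values were 0.23, -0.31 and -0.001 log2 CPM. Its call is thus not support for a rise.

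Of 18 integrin ligands 11 passed the filter, of which CpG called 2 up and 5 down in Tlr9het and the same numbers in Tlr997, and CL097 called 2 up and 4 down. Over all genes tested 29.7% were called higher and 28.2% lower in Tlr9het, 29.6% and 26% in Tlr997, and 22.7% and 23.6% with CL097. Icam1, the ligand of LFA-1, was higher in each response, by 1.56, 1.31 and 1.21 on the log2 scale (limma adjusted p = 9.0e-10, 6.2e-09 and 1.4e-05). Tgfb1, whose latent form is bound by the alpha v integrins, was lower by -1.58, -1.71 and -1.10 (limma adjusted p = 3.0e-10, 1.8e-10 and 3.5e-05). Mfge8, an RGD protein that bridges alpha v integrins and dying cells, was also lower, by -1.0, -1.37 and -1.22, as was Icam2, by -0.53, -0.70 and -0.78. Thbs1 and Vcam1 (the latter the ligand of VLA-4) were called lower with CpG, by -1.14 and -1.03 in Tlr9het and by -1.10 and -1.12 in Tlr997. With CL097 their log2 fold changes were 0.27 and -0.45 and were not called. The summed macrophage and monocyte markers were lower with each agonist. In unstimulated Tlr997 Thbs1 was at 7.21, 6.59 and 5.67 and Vcam1 at 7.12, 6.16 and 6.07 log2 CPM. Both had the order of that sum there (317, 208 and 117 CPM). In unstimulated Tlr779 only Thbs1 had its order, and in unstimulated Tlr9het neither did. With CpG both had the order of the sum in Tlr997 and only Vcam1 had it in Tlr9het. With CL097 only Thbs1 had it. The part of these cells in the Thbs1 and Vcam1 values was not tested. Called ligands averaging under 2 log2 CPM, named after their values were seen, were F11r (1.37, Tlr9het), Jam2 (1.75, Tlr997), Icam4 (2.24, CL097) and Spp1 (-2.14, CL097). F11r, Jam2 and Icam4 passed the filter only with stimulated libraries counted. Jam2 was over 0 log2 CPM only with CpG (0.10 in Tlr9het, 0.20 and 0.66 in Tlr997). The calls of F11r, Jam2 and Icam4, which the counts of ligands called up include, are thus not support for a rise. The medians of the list were -0.53, -0.59 and -0.45, beside 0.04, 0.07 and -0.02 over all genes.

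Genes that open or restrain integrins from inside the cell, or link them to actin, were more often called lower than higher. Of 36 such genes 32 passed the filter in the first arm and 31 in the second. With CpG in Tlr9het 5 were called higher and 19 lower, in Tlr997 5 and 18, and with CL097 3 and 18, beside the shares of all genes given for the ligands (28.2%, 26% and 23.6% lower). The medians were -0.98, -0.79 and -0.71, beside 0.04, 0.07 and -0.02 over all genes. Since the list mixes genes of opposite roles, these counts and medians give no direction for integrin activity. Rasgrp2, the exchange factor that loads Rap1 with GTP, had the largest fall with CpG, by -4.43 in Tlr9het and -4.34 in Tlr997 (limma adjusted p = 9.4e-12 and 1.6e-11), and changed by -2.45 with CL097 (adjusted p = 3.7e-05). Sipa1, which inactivates Rap1, changed by -3.47, -3.33 and -2.32, and Rassf5 (RAPL), an effector of Rap1 that binds the alpha L chain, by -2.93, -2.69 and -1.99. Zyx, zyxin of focal adhesions, changed by -2.49, -2.72 and -2.63.

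The activators that bind the beta chain's tail belonged to the lower genes as well. Tln1, talin, changed by -2.11, -2.0 and -1.19, and Fermt3, the kindlin of blood cells, by -1.94, -2.02 and -1.07 (chosen for their role after the values had been seen). The higher genes were few. Pxn, paxillin, which binds the tail of the alpha 4 chain, was higher by 1.73, 1.39 and 1.18, Ptk2, focal adhesion kinase, by 1.57, 1.49 and 1.12, and Rap1b, the GTPase itself, by 1.40, 0.90 and 0.85. Adap1 was higher with CpG in both genotypes, by 1.00 and 1.34, and had a log2 fold change of 0.28 with CL097, not called. Adap1 encodes an Arf GTPase-activating protein and not the integrin adaptor ADAP, which is the product of Fyb. Fyb, also in the list, averaged 3.75 log2 CPM without and 3.94 with CpG in Tlr9het, and 3.18 and 3.44 in Tlr997. None of the 50 genes of the 3 lists tested in the first arm was called by limma between the genotypes or in the difference of responses; 14 had an unadjusted p under 0.05 with CpG, 5 unstimulated and 9 in the difference, beside 19%, 10.8% and 16% of all genes.

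**Figure D5:**
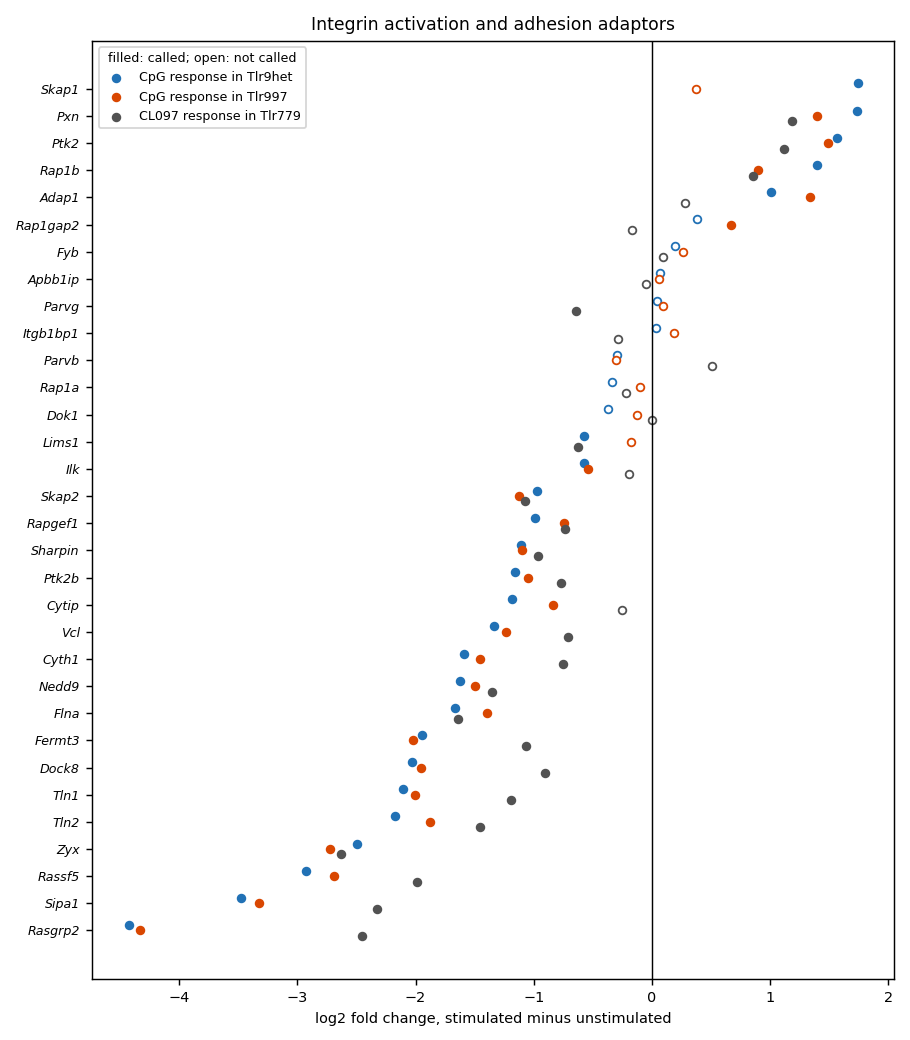
Log2 fold change (x axis, stimulated minus unstimulated) of the 32 activation and adhesion genes tested, in the order of their CpG response in Tlr9het, for CpG in Tlr9het, CpG in Tlr997 and CL097 in Tlr779. Filled points were called: most lie left of 0, down to Rasgrp2 at -4.43, and Pxn, Ptk2 and Rap1b are filled to the right in all 3 responses.

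The genes whose pattern over the 12 libraries of the first arm was most like that of Itgb3, each centred on its own mean, were Mical1, Lbh, Itpr3, Ets1 and Cmah. Their root mean square difference from Itgb3 was 0.20, 0.24, 0.26, 0.28 and 0.28 on the log2 scale, where Itgb3 itself varied by 1.76. In the second arm, which the choice did not use, Mical1 averaged 7.70 log2 CPM without and 5.34 with CL097, and Ets1 10.88 and 9.08, beside 6.82 and 5.49 for Itgb3. For Itgb5 the nearest genes were Rxra, Ctsl, Zfp84, Endod1 and Usp6nl, at 0.18 to 0.23, where Itgb5 itself varied by only 0.34. Closeness of patterns over libraries that share genotype and stimulus is a description.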

How the data were processed

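B cell RNA was sequenced by the authors as stranded paired-end mRNA libraries. Per the labels and methods, the authors trimmed reads with Trim Galore 0.6.5, aligned them with STAR 2.6.1a to mm10, counted them with featureCounts (Subread 2.0.1) and applied quantile normalization and voom. The deposited values are log2 CPM, 1 file for each of 18 samples, with no counts. They carry voom's offset, which understates changes of low genes. A value per replicate number and gene had been removed from them, since among genes lower than -4 throughout an arm, 822 in the first and 1817 in the second had 1 value per number that differed between the numbers; the tests do not know of that removal.

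The log2 values were tested with limma 3.58.1 (R 4.3.3) with a variance trend, 12 libraries in 1 model for the first arm and 6 for the second, without a replicate block, after the filter given above. The tests were checked on simulated data. Same-numbered libraries deviated together in Tlr9het (r = 0.51, 0.29 and 0.51) and Tlr779 (0.25, 0.49 and 0.33). In Tlr997 (0.37, 0.08 and 0.03) only those of number 1 did, beside up to 0.17 between different numbers. Those of Tlr9het and Tlr779 were judged to be pairs, but the main tests were unpaired. A replicate block entered only the alternative settings. Summed CPM were 991992 to 1004412 per library. P-values measure the spread between these libraries as deposited, after a value per replicate number had been removed. They may be too small by an unknown amount. Members, lists and tests were chosen with earlier results of these data known. All 10 members were named, and of each list the up to 4 highest and 4 lowest called genes averaging over 2 log2 CPM.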

Additional observations from a re-analysis of the deposited data

How the results depend on the processing

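Of 1330 values of the 10 integrins under alternative settings, 1298 kept their side of the thresholds, 25 lost a call, 7 gained one and 0 changed direction while called; 24 changed sign while called in neither setting. A threshold of 1 for the log2 fold change left 5 integrins called with CpG in Tlr9het, 5 in Tlr997, 3 with CL097 and 0 between the genotypes with CpG. The last count was also 0 with no filter on low values and with no variance trend. Leaving out 1 library at a time gave 7 to 8 called integrins with CpG in Tlr9het, 7 to 8 in Tlr997, 5 to 6 with CL097, 0 to 2 between the genotypes with CpG, and 0 between the unstimulated genotypes and in the difference of responses. With the replicate block as a term no integrin's call changed: 7 were called with CpG in Tlr9het, 8 in Tlr997, 6 with CL097 and 1 between the genotypes with CpG. A value per replicate number had already been removed from the deposited values. A block on number across an arm may thus have had little left to take out, and its unchanged calls are no sign of robustness. Array weights left 9 called with CpG in Tlr9het, adding Itgam and Itgax (-0.50, adjusted p = 0.012 in limma), and gave Itgam a log2 fold change of 0.58 in Tlr9het, called (adjusted p = 0.010 in limma), and 0.49 in Tlr997, not called (adjusted p = 0.071). The length of the longest coding transcript was tried after seeing the data and moved levels per kb, not fold changes. Depth is unknown, so no counting error could be given for the low values of Itgb5, Itgax and stimulated Itgb7.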
